A study of Mus musculus with 6 samples.

Results

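The 10 genes described here encode transcription factors that direct the differentiation of enterocytes, the absorptive cells of the gut, and the positioning of their gene programs along the intestine and the villus. They are Hnf4a, Hnf4g, Cdx1, Cdx2, Gata4, Gata6, Klf4, Klf5, Maf and Elf3. Members were chosen by name among the 21397 genes of the deposited expression table, and all 10 were found. RNA was sequenced from small intestinal organoids, miniature epithelia grown from crypts in Matrigel, of Fpr2f/f mice, and the study's text calls the organoids ileal. These mice carry loxP-flanked Fpr2 alleles, and no Cre recombinase was named for these organoids in either group. One group of 3 libraries was treated for 5 days with MMK-1, a synthetic peptide agonist of formyl peptide receptor 2 (FPR2). The other group of 3 libraries received the vehicle, 0.1% DMSO. The protocol text and the study's methods give the MMK-1 dose as 1 μM, whereas the treatment label of the same samples reads 1 mM, and the former was taken as the dose. The study states that each sample pooled organoids of 3 age-matched adult mice. The study's statistics section speaks in general of independent experiments, but nothing says of these 3 libraries of a group that they came from separate cultures, so p-values measure the spread between these libraries, which may be technical.

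HNF4A and HNF4G are paralogous nuclear receptors that bind the same DNA motif and activate genes of lipid handling and of the brush border. CDX1 and CDX2 are caudal-type homeobox factors that give the epithelium its intestinal identity, and GATA4 and GATA6 are zinc finger factors that set regional programs along the small intestine. KLF4 and KLF5 share a binding motif but mark different cells, since KLF5 is typical of dividing crypt cells and KLF4 of differentiated ones. MAF, a basic leucine zipper factor, drives nutrient transport programs of villus enterocytes, and ELF3, an epithelial ETS factor, promotes differentiation.

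The values are FPKM, fragment numbers divided by gene length and by the library total. The libraries held 35512739 to 37537463 fragments, computed from the steps of the FPKM values. Organoids expressed enterocyte markers in both groups, with a summed level over 11 markers of 9696 to 9816 FPKM in control libraries and 5440 to 5858 FPKM with MMK-1. The 8 stem cell markers all rose, and their summed level was 79.8 to 81.3 FPKM in controls against 402 to 429 FPKM in MMK-1 libraries. In bulk RNA, fewer cells of a type and less RNA per cell cannot be told apart. Libraries of 1 group also differed among themselves. MMK-1 replicate 3 stood apart from the other MMK-1 libraries, with a chi-square of fragments per degree of freedom of 34.4 and 29.4 against replicates 1 and 2. These differed from each other by 3.46, and control libraries by at most 4.78. The trend of replicate 3 on GC content differed from that of replicates 1 and 2 too. At a GC content of 41.3% the fitted deviation of log2(FPKM + 1) from the mean of the 6 libraries was 0.035 in replicate 3. It was 0.19 in each of replicates 1 and 2. At 57.6% it was 0.11 in replicate 3 against 0.018 and 0.0089. Control libraries had -0.14, -0.15 and -0.15 at 41.3%, and -0.049, -0.040 and -0.048 at 57.6%. Replicate 3 thus rose with GC content as controls did, whereas MMK-1 replicates 1 and 2 fell. Results that rest on this library are given with and without it.

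All 10 regulators differed by less than 2-fold between the groups. By limma on log2(FPKM + 1), with an adjusted p of at most 0.05, 4 of the 10 rose with MMK-1 (Elf3, Cdx1, Cdx2 and Gata4), 2 fell (Klf5 and Maf) and 4 passed in neither direction (Hnf4a, Hnf4g, Gata6 and Klf4). Over all 10551 genes tested, 48.5% were higher and 24.7% were lower by the same rule, and 73.2% in either direction, so the share of these 10 that changed was not above that of genes in general. None of the 10 passed the study's own rule of a fold change of at least 2 with p of at most 0.05, which 3.39% of all genes tested passed upward and 3.65% downward (7.04% together). The FPKM values of both groups were apart in 7 members, with MMK-1 higher in 5 and lower in 2, where MMK-1 was higher in 50.5% and lower in 26.3% of all genes tested (76.8% together). The median log2 fold change of the 10 was 0.07, against 0.13 over all genes tested. Scaling the libraries by median-of-ratios factors moved the median of all genes by over 0.1, from 0.13 to -0.0034, and the calls over all genes from 5118 higher and 2606 lower to 3682 higher and 3916 lower. Of the 10 members, 3 were then higher (Elf3, Cdx1 and Cdx2) and 4 lower (Klf5, Maf, Hnf4a and Klf4), against 34.9% and 37.1% of all genes. After removal of the GC trend, 4 were higher and 3 lower (Klf5, Maf and Hnf4g), against 35.6% and 37.8% of all genes. For this reason, changes are also given relative to the median of all genes. Summed over the 10 genes, the level was 680 to 695 FPKM in control libraries and 743 to 763 FPKM with MMK-1.

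**Figure D1:**
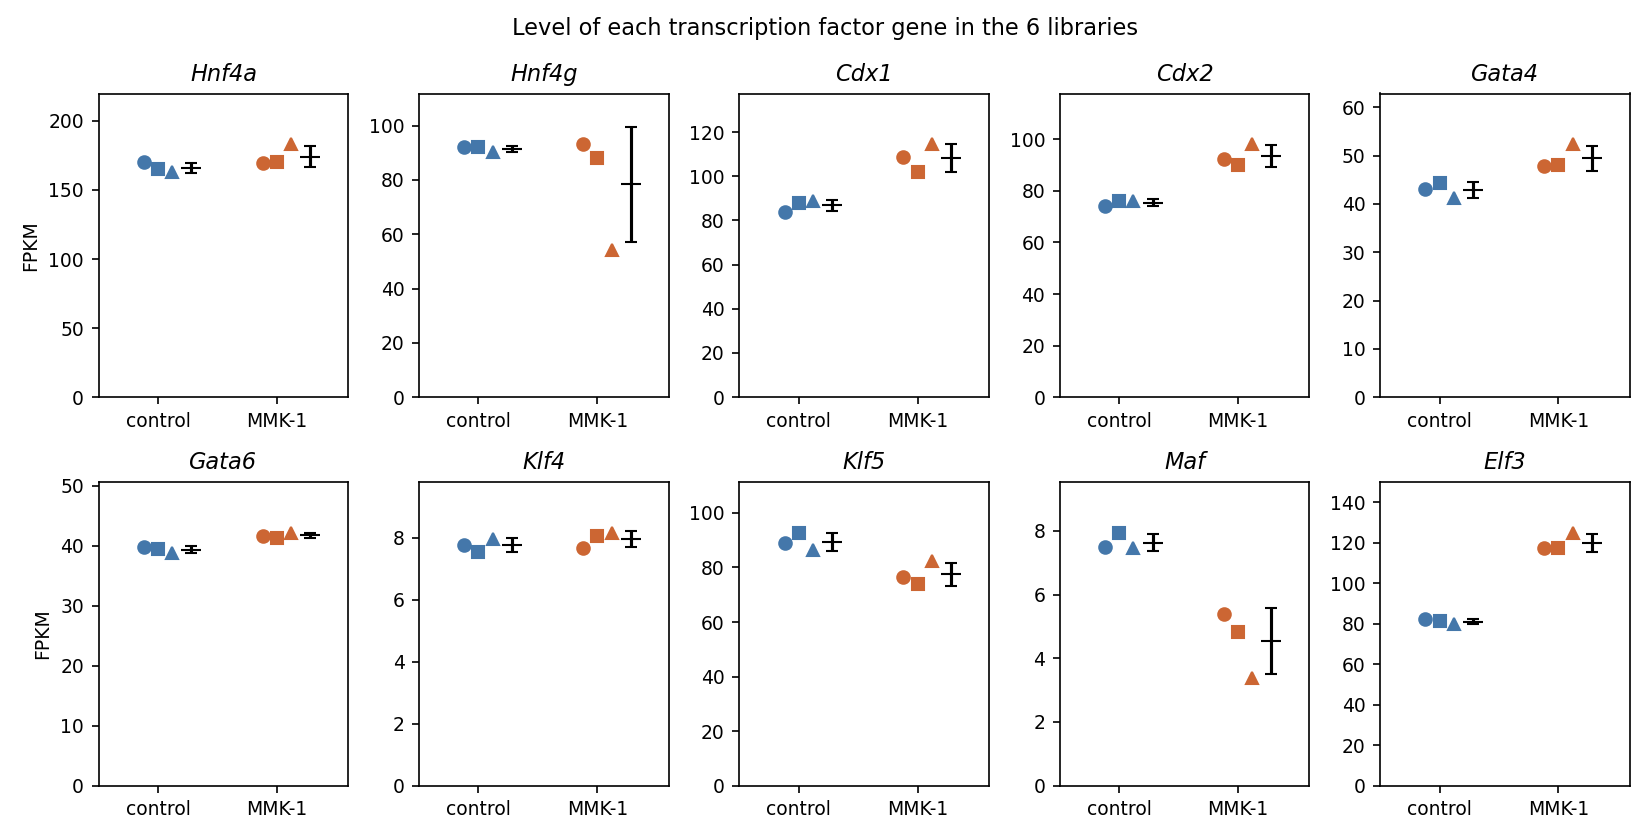
FPKM (vertical axes, from 0) of the 10 genes in 3 control libraries (blue) and 3 MMK-1 libraries (orange), with replicate 1 as a circle, 2 as a square and 3 as a triangle, and the mean with its SD as black bars. Elf3, Cdx1 and Cdx2 lie higher with MMK-1, Klf5 and Maf lie lower, and Hnf4g is low in MMK-1 replicate 3, at 54.2 FPKM.

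Elf3 showed the largest rise among the 10. Its FPKM was 82.2, 81.3 and 79.7 in control replicates 1 to 3 and 117.4, 117.2 and 125.0 in MMK-1 replicates 1 to 3. Every MMK-1 library thus lay above every control library, with replicate 3 the highest. The mean was 1.48 times that of controls, with a log2 fold change of 0.56 (95% interval 0.46 to 0.65, adjusted p = 3.9e-06 in the limma test) and 0.42 above the median of all genes. By size, this change exceeded that of 75.9% of the genes tested. With median-of-ratios scaling the log2 fold change was 0.40 (adjusted p = 1.2e-05), and over all alternatives it lay between 0.40 and 0.57. Elf3 (NCBI gene 13710) spans bases 135253574 to 135258472 of chromosome 1 in GRCm38, the build of all positions given here.

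Promoter sequences are shown for Elf3 and Cdx2, which rose, and for Hnf4a, which did not pass the test, because these factors and their partners are known to bind each other's promoters. RefSeq promoter entries on GRCm38.p6 were used for 4 of the 10 members, in 5 windows of the 250 bases before a start site, and the window of Klf4 is described below without its letters. No sequence is printed for Hnf4g, Cdx1, Gata4, Gata6, Klf5 and Maf. Capitals mark matches on either strand to 5 motifs, which were AAAGTCCA for HNF4 receptors, AGATAA for GATA factors, TTTATNG for CDX factors, CCCCNCCC for KLF and SP factors and AGGAAG for ETS factors. Among 32851 promoter windows of the same length, the shares with a match were 1.01%, 9.99%, 9.81%, 30.8% and 29.5% in that order. The windows read 5′ to 3′ on the strand of the gene.
Elf3, chr1:135258473-135258722, minus strand: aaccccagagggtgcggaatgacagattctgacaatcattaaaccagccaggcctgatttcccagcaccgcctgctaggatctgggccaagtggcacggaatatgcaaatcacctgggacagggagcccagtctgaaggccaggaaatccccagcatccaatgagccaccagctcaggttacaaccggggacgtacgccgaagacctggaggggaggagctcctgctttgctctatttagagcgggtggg
Cdx2, chr5:147307250-147307499, minus strand: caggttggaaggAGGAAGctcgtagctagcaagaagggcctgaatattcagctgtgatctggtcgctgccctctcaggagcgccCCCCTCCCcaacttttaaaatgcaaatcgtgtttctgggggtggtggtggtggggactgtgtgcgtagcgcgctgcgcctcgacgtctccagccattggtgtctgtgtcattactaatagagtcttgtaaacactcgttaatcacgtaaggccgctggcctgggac
Hnf4a, upstream start, chr2:163506607-163506856, plus strand: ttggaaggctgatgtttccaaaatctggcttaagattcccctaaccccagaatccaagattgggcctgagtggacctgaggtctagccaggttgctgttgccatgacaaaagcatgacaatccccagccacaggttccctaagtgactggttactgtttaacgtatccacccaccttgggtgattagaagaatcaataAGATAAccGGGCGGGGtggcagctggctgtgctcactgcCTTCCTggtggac
Hnf4a, downstream start, chr2:163546905-163547154, plus strand: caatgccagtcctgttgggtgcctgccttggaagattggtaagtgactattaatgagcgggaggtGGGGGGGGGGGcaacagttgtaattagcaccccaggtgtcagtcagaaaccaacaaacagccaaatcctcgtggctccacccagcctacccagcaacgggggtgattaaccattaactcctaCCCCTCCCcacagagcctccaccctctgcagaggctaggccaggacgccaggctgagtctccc
The Elf3 window held none of the 5 motifs, which says only that these letters are absent from it. The Cdx2 window held 1 KLF and SP match, from base 166 to base 159 before the start, and 1 ETS match, from base 238 to base 233. The downstream start of Hnf4a held 5 KLF and SP matches, 4 of which overlapped in a single run of G, so that these are not separate sites. The upstream start of Hnf4a held the GATA motif from base 52 to base 47 before the start, with 1 KLF and SP match and 1 ETS match. A match of letters is a description of the window and not a binding site.

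Both caudal homeobox genes rose. Cdx2 measured 74.0, 76.2 and 76.2 FPKM in controls against 92.2, 90.0 and 98.2 FPKM with MMK-1, without overlap. The log2 fold change of Cdx2 was 0.30 (95% interval 0.20 to 0.40, adjusted p = 2.5e-04 in the limma test), a mean 1.24-fold that of controls. Cdx1, which is also known as a target of Wnt signaling in crypts, had 84.0, 87.9 and 88.6 FPKM in controls against 108.6, 101.7 and 114.5 FPKM with MMK-1. Its groups did not overlap either, and its log2 fold change was 0.31 (95% interval 0.20 to 0.43, adjusted p = 5.0e-04 in the limma test). Relative to the median of all genes, the changes were 0.17 for Cdx2 and 0.18 for Cdx1. Median-of-ratios scaling lowered the log2 fold change of Cdx2 from 0.30 to 0.15 (adjusted p = 0.0060) and that of Cdx1 from 0.31 to 0.16 (adjusted p = 0.014). Removing the GC trend lowered that of Cdx1, with a GC content of 62.1%, to 0.14 (adjusted p = 0.0051). For Cdx2, with a GC content of 57.5%, it lowered the value to 0.21 (adjusted p = 1.3e-04). Because the ratio of 2 genes within a library does not depend on the scaling between libraries, the ratio of Cdx1 to Cdx2 was also compared. It was 1.13, 1.15 and 1.16 in controls and 1.18, 1.13 and 1.17 with MMK-1, so the groups overlapped. This ratio is not corrected for GC content. The difference of the log2 ratio was 0.0089 (exact two-sided permutation p = 0.7), and leaving out single libraries moved it between -0.0029 and 0.026. Cdx1 lies on chromosome 18 from 61018862 to 61036199 and Cdx2 on chromosome 5 from 147300900 to 147307249.

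Of the HNF4 receptors, Hnf4a was the most abundant of the 10 genes in both groups and hardly differed between them. Control libraries had 170.0, 165.1 and 163.2 FPKM and MMK-1 libraries 169.3, 170.2 and 183.2 FPKM. The ranges overlapped, with MMK-1 replicate 1 inside the control range, replicate 2 just above it and replicate 3 further above. The log2 fold change was 0.07 (95% interval -0.031 to 0.17, adjusted p = 0.188 in the limma test), an interval that excludes changes of the size seen in Cdx1 and Elf3. This value was 0.066 below the median of all genes and turned to -0.09 (adjusted p = 0.037) with median-of-ratios scaling, to -0.044 with upper-quartile scaling and to -0.0019 after removal of the GC trend. Hnf4aos, a gene named as lying on the opposite strand, overlaps Hnf4a and had 2.86 FPKM in controls against 1.44 FPKM with MMK-1, and reads of both cannot be told apart without strand. Hnf4a lies on chromosome 2 from 163506811 to 163572907.

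Hnf4g, by contrast, varied among the MMK-1 libraries more than any other member. It measured 92.0, 92.2 and 90.3 FPKM in controls against 93.2, 88.0 and 54.2 FPKM with MMK-1. Replicates 1 and 2 lay at or near the control range, and replicate 3 lay far below it. Accordingly, the coefficient of variation was 1.15% among controls and 27.0% among MMK-1 libraries. The log2 fold change was -0.26 (95% interval -0.65 to 0.13, adjusted p = 0.202 in the limma test). Without MMK-1 replicate 3 it was -0.014 (adjusted p = 0.691), while without replicate 1 it was -0.40 (adjusted p = 0.061). After removal of the GC trend it was -0.54 and passed the test (adjusted p = 0.010), with all 6 libraries included. In the FPKM as deposited, the lower mean of Hnf4g with MMK-1 rests on 1 library, replicate 3. The fit with the GC trend removed was not repeated without that library. In that library Hnf4g was 0.73 lower on the log2(FPKM + 1) scale than the mean of MMK-1 replicates 1 and 2, and 84 of 10551 genes tested were as low or lower. Hnf4g has a GC content of 41.5% in its longest GENCODE transcript. Among 708 genes within 1 percentage point of it, the median of this difference was -0.11, and 10 genes were as low or lower. What set this library apart was not tested. Hnf4g lies on chromosome 3 from 3508030 to 3659800.

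The ratio of Hnf4a to Hnf4g showed the same library. It was 1.85, 1.79 and 1.81 in controls, 1.82 and 1.93 in MMK-1 replicates 1 and 2, and 3.38 in replicate 3. The groups overlapped, and the log2 ratio differed by 0.33 (exact two-sided permutation p = 0.2, adjusted p = 0.267 over 4 ratios). Without MMK-1 replicate 3 this difference was 0.046.

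Gata4, which maintains the jejunal program and keeps ileal genes low, rose slightly. Its FPKM was 43.2, 44.4 and 41.2 in controls and 47.9, 48.0 and 52.4 with MMK-1, and the groups did not overlap. The log2 fold change was 0.20 (95% interval 0.084 to 0.31, adjusted p = 0.0062 in the limma test). That call was lost with upper-quartile scaling, at 0.088 (adjusted p = 0.105), and with median-of-ratios scaling, at 0.043 (adjusted p = 0.366). Gata6, which acts along the whole small intestine, had 39.8, 39.5 and 38.7 FPKM in controls against 41.6, 41.3 and 42.2 FPKM with MMK-1. Although these values did not overlap, the log2 fold change of 0.08 (95% interval -0.0024 to 0.17) did not pass the limma test (adjusted p = 0.073). It turned to -0.028 with upper-quartile and to -0.07 with median-of-ratios scaling, and it passed without MMK-1 replicate 3 (0.07, adjusted p = 0.043). Gata6os, listed as opposite-strand, overlaps Gata6 and had 16.4 FPKM in controls against 14.6 FPKM with MMK-1, so some of the reads of either gene may belong to the other. Within libraries, the ratio of Gata4 to Gata6 was 1.08, 1.12 and 1.06 in controls and 1.15, 1.16 and 1.24 with MMK-1. Every MMK-1 ratio was above every control ratio, with a log2 difference of 0.12 (exact two-sided permutation p = 0.1, adjusted p = 0.2 over 4 ratios). With 3 libraries against 3, a permutation p cannot be below 0.1. Gata4 lies on chromosome 14 from 63198914 to 63271712 and Gata6 on chromosome 18 from 11052510 to 11085636.

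Klf5 and Klf4 encode factors of the same family. In the deposited FPKM Klf5 was the higher of them, but the size of that gap rests on gene lengths of 1728 bases for Klf5 and 7553 for Klf4, where the longest GENCODE transcripts have 3352 and 3029. Klf5, the factor of dividing crypt cells, measured 89.2, 92.8 and 86.3 FPKM in controls against 76.7, 73.9 and 82.2 FPKM with MMK-1. Each MMK-1 library lay below each control library. Its log2 fold change was -0.20 (95% interval -0.32 to -0.088, adjusted p = 0.0056 in the limma test), and -0.34 relative to the median of all genes. The fall was larger with median-of-ratios scaling, at -0.36 (adjusted p = 1.3e-04), and after removal of the GC trend, at -0.32 (adjusted p = 1.2e-04). In the same libraries, 6 of 6 markers of dividing cells rose, their median log2 fold change being 0.96, so Klf5 and these markers moved in opposite directions. Over all genes tested, 48.5% were higher. Klf4, the factor of differentiated cells, had 7.77, 7.54 and 7.98 FPKM in controls against 7.69, 8.04 and 8.17 FPKM with MMK-1. These ranges overlapped widely. The log2 fold change was 0.033 (95% interval -0.07 to 0.14, adjusted p = 0.54 in the limma test). The same value was -0.067 with upper-quartile scaling, -0.11 (adjusted p = 0.044) with median-of-ratios scaling and -0.04 after removal of the GC trend. The ratio of Klf4 to Klf5 was 0.0872, 0.0813 and 0.0924 in controls and 0.100, 0.109 and 0.0994 with MMK-1. It was higher in each MMK-1 library than in any control, with a log2 difference of 0.24 (exact two-sided permutation p = 0.1, the smallest possible, adjusted p = 0.2 over 4 ratios). The Klf4 promoter window, on chromosome 4 from 55532476 to 55532725, had a GC content of 74.0% and 5 KLF and SP matches, 2 of which overlap. Klf4 lies on chromosome 4 from 55527137 to 55532475 and Klf5 on chromosome 14 from 99298691 to 99313412.

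**Figure D2:**
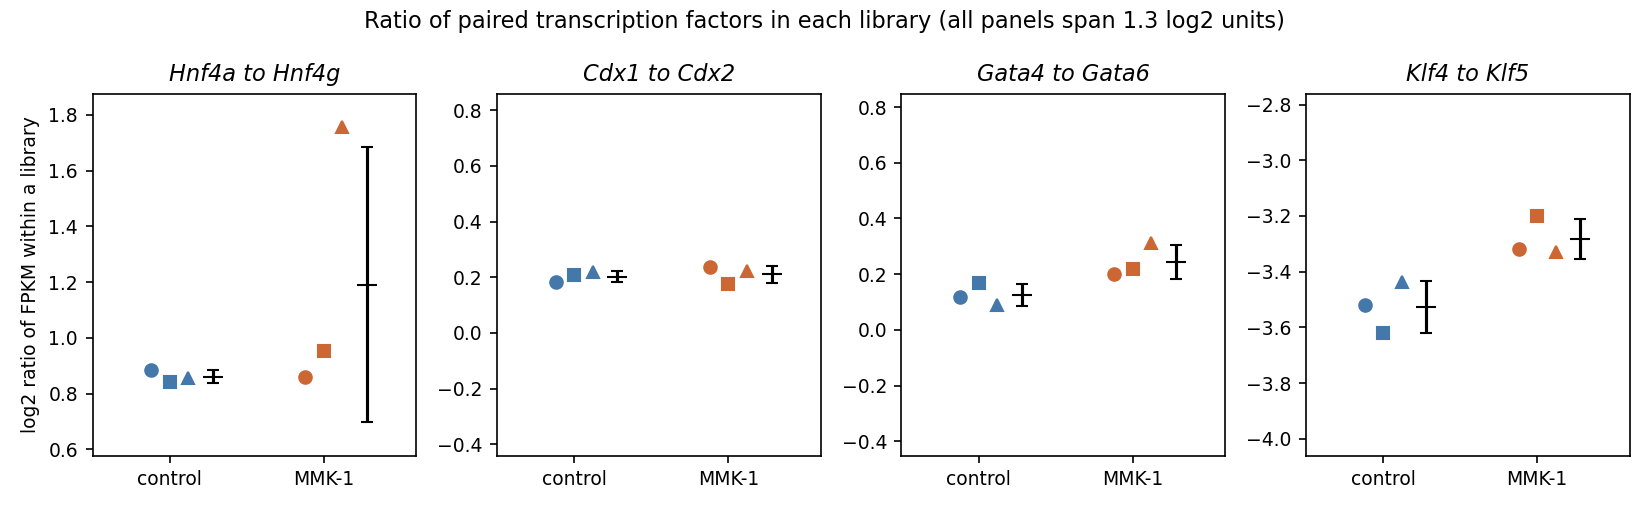
Log2 ratio of FPKM within each library (vertical axes, each spanning 1.3 units) for 4 pairs of factors in control (blue) and MMK-1 libraries (orange), with replicates 1, 2 and 3 as circle, square and triangle and the mean with its SD in black. Gata4 to Gata6 and Klf4 to Klf5 are higher in all MMK-1 libraries, Cdx1 to Cdx2 overlaps, and Hnf4a to Hnf4g differs through MMK-1 replicate 3.

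Maf showed the largest change of the 10 with all libraries included. Its FPKM was 7.48, 7.94 and 7.47 in controls and 5.39, 4.82 and 3.39 with MMK-1, or 1021, 1086 and 1017 fragments against 697, 631 and 459. All MMK-1 libraries lay below the controls, with replicate 3 the lowest. The mean was 0.594 times that of controls, and the log2 fold change was -0.66 (95% interval -0.93 to -0.38, adjusted p = 0.0011 in the limma test). By size, this exceeded the change of 81.8% of the genes tested. With a pseudocount of 0.1, which compresses low values less, it was -0.76 (adjusted p = 0.0013). Without MMK-1 replicate 3 the log2 fold change was -0.50 (adjusted p = 6.4e-05), smaller in size than the 0.53 of Elf3 in the same fit, and with median-of-ratios scaling it was -0.79 (adjusted p = 9.8e-04). In replicate 3, Maf was 0.47 lower on the log2 scale than the mean of replicates 1 and 2, and 329 of the 10551 genes tested were as low or lower. Among 1109 genes within 1 percentage point of its GC content of 47.4%, the median of this difference was 0.063, and 6 genes were as low or lower. MAF is also made by macrophages and lymphocytes. Of the 8 immune markers, both that could be tested, Cd68 and Itgam, fell, by 0.96 and 0.79 on the log2 scale. The summed level of the 8 was 6.21 to 6.74 FPKM in controls against 2.47 to 3.32 FPKM with MMK-1. Ptprc and Tyrobp, which define leukocytes, were at 0.0076 and 0.031 FPKM in controls, or 5 and 2 fragments in all 3 libraries together. Csf1r, the receptor that defines macrophages, was at 0.152 FPKM in controls against 0.0070 FPKM with MMK-1. The part of immune cells in the fall of Maf was not tested. Maf lies on chromosome 8 from 115703253 to 115706894.

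**Figure D3:**
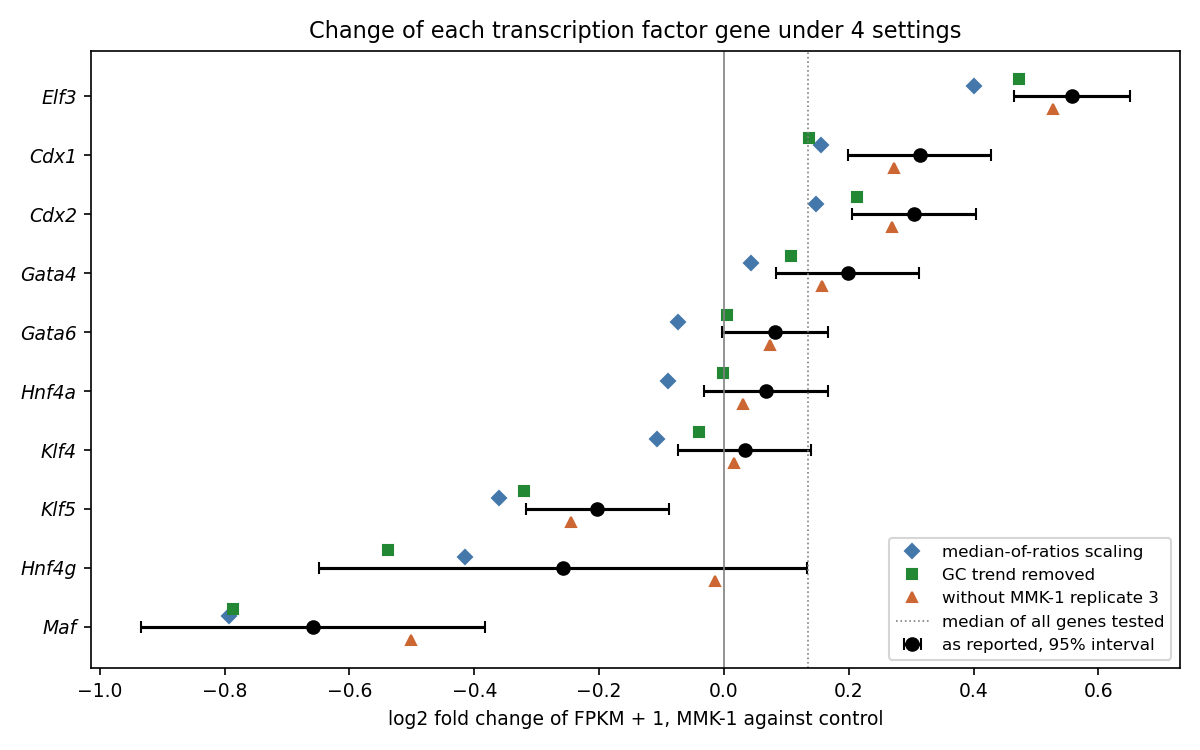
Log2 fold change of FPKM + 1 (horizontal axis, MMK-1 against control) of the 10 genes, with the limma value and its 95% interval in black and the values with median-of-ratios scaling (blue), GC trend removed (green) and MMK-1 replicate 3 left out (orange). The dotted line marks the median of all genes tested, 0.13, and Hnf4g moves from -0.54 to -0.014 between settings.

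Ordered by mean FPKM in controls, the genes ran from Hnf4a, at 166.1, through Hnf4g (91.5), Klf5 (89.4), Cdx1 (86.9), Elf3 (81.1), Cdx2 (75.5), Gata4 (42.9) and Gata6 (39.4) to Klf4 (7.76) and Maf (7.63). The ranges of Hnf4g and Klf5, of Klf5 and Cdx1, and of Klf4 and Maf overlapped among controls, so these neighbours in the order do not differ beyond their spread. With MMK-1, Elf3 stood second at 119.9 FPKM, followed by Cdx1 (108.3) and Cdx2 (93.5), while Hnf4g (78.5) and Klf5 (77.6) followed them. Here Cdx2 and Hnf4g, and Hnf4g and Klf5, overlapped, and Maf, at 4.53 FPKM, no longer overlapped Klf4. FPKM divides by gene length, and for several members the length implied by the table was not that of the longest GENCODE transcript, whereas for Cdx1 both were 1750 bases. For Klf4 the implied length was 7553 bases against 3029, and for Hnf4g 4378 against 2327. For Maf it was 3642 against 6360. For Klf5 it was 1728 against 3352, although a whole multiple of 1728 with fragments multiplied alike cannot be told apart. The order of levels between genes depends on these lengths, whereas changes within a gene do not.

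Relatives of these factors were taken from the same gene families. Of 31 listed relatives in the CDX, GATA, KLF, MAF and ELF families, 17 were tested, and 12 rose and 3 fell, where 48.5% of all genes tested were higher and 24.7% lower. The relatives had a median log2 fold change of 0.35, against 0.13 over all genes tested. The number that fell was 1 without control replicate 1 and 1 without control replicate 2. Among all 753 genes tested that the table assigns to a transcription factor family, a group chosen after the table was seen, 62.9% were higher and 13.5% lower, with a median of 0.28. The largest rises among relatives were those of Klf11 (0.73), Klf10 (0.69) and Ehf (0.68), the last an ETS factor close to Elf3, on the log2 scale. Among the relatives that fell, Gata5 and Klf6 fell by 0.19 and 0.16. With median-of-ratios scaling, the median of the relatives was 0.20.

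Among 31 other regulators of enterocytes and of intestinal position, 26 were tested, and 8 rose and 11 fell, with a median log2 fold change of 0.0041. Of all genes tested, 48.5% were higher and 24.7% lower. The largest falls were those of nuclear receptors, namely Nr1i3 (-1.51), which encodes the xenobiotic sensor CAR, Ppara (-0.78), a regulator of fatty acid oxidation, and Nr1h4 (-0.70), the bile acid receptor FXR. Foxa3, Foxa2 and Foxa1, forkhead factors of endodermal genes, rose by 1.27, 1.01 and 0.81.

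Most genes on the lists of those that HNF4, CDX and GATA4 are known to activate fell. By the same rule, 24.7% of all genes tested were lower and 48.5% higher. Of 8 brush border genes linked to HNF4, 7 fell and 0 rose, with a median log2 fold change of -1.08, and Myo1a, a microvillus myosin, led with -2.02, ahead of Mep1a (-1.87) and Vil1 (-1.21). Beside these, Hnf4a and Hnf4g had log2 fold changes of 0.07 and -0.26, neither of which passed the test, although Hnf4a was called lower with median-of-ratios scaling and Hnf4g after removal of the GC trend. Of 13 lipid genes linked to HNF4, 9 fell and 2 rose (1 with either other scaling or after removal of the GC trend), with a median of -0.29, and the largest falls were those of the apolipoprotein genes Apoa1 (-2.62) and Apoc3 (-2.12). All 7 genes linked to CDX factors fell, with a median of -0.96, while Cdx1 and Cdx2 rose. The largest of these falls were those of the peptide transporter gene Slc15a1 (-3.44), the lactase gene Lct (-2.37) and Gucy2c (-1.07). Of 4 jejunal genes linked to GATA4, 3 fell and Fabp1 rose (0.17, a call lost with either other scaling, without a filter and after removal of the GC trend), with a median of -0.69, and Lct, Npc1l1 (-1.08) and Apoa4 (-0.29) were those that fell. The 5 ileal genes tested of 6 listed, which GATA4 is known to keep low, all fell too (4 without the filter), with a median of -1.58, led by Cubn (-2.31), Fabp6 (-1.66) and Slc51a (-1.58). Fgf15 was under the filter in both groups.

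By villus zone, 6 of 7 genes of the villus bottom fell and 0 rose, with a median of -1.15. For these lists and the cell type markers below, the shares over all genes tested were 24.7% lower and 48.5% higher. Of the 8 genes of the villus middle, where MAF-dependent nutrient transporters lie, 6 fell and 2 rose (Slc2a5 and Fabp1, the latter with the limits just given), with a median of -0.91, and the changes ranged from -3.44 for Slc15a1 through -1.77 for Slc7a8 to 0.24 for Slc2a5. Of 12 genes of the villus top, 9 were tested, and 6 fell and 3 rose, with a median of -0.62. Ada and Nt5e, purine enzymes of the villus tip, were under the filter, with 0.281 FPKM in controls against 1.09 FPKM with MMK-1 for Ada (142 and 534 fragments in all) and 0.0447 and 0.178 FPKM for Nt5e (18 and 69 fragments). Without the filter, 5 genes of the villus top were higher in place of 3. The median of each of these lists stayed below 0 with median-of-ratios scaling, after removal of the GC trend and without MMK-1 replicate 3. Of the other cell type markers, 5 of 5 for Paneth cells and 6 of 7 for enteroendocrine cells rose, and for goblet cells 5 of 7 rose and 2 fell. Mesenchyme markers summed to at most 5.19 FPKM in any library. Of the 11 enterocyte markers 10 fell, but 9 of the 11 are themselves genes of the lists above, and the 2 that are not, Fabp2 and Anpep, fell by 2.00 and 2.84 on the log2 scale. Stem cell and dividing cell markers rose, and the part of cell composition in any of these changes was not tested.

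**Figure D4:**
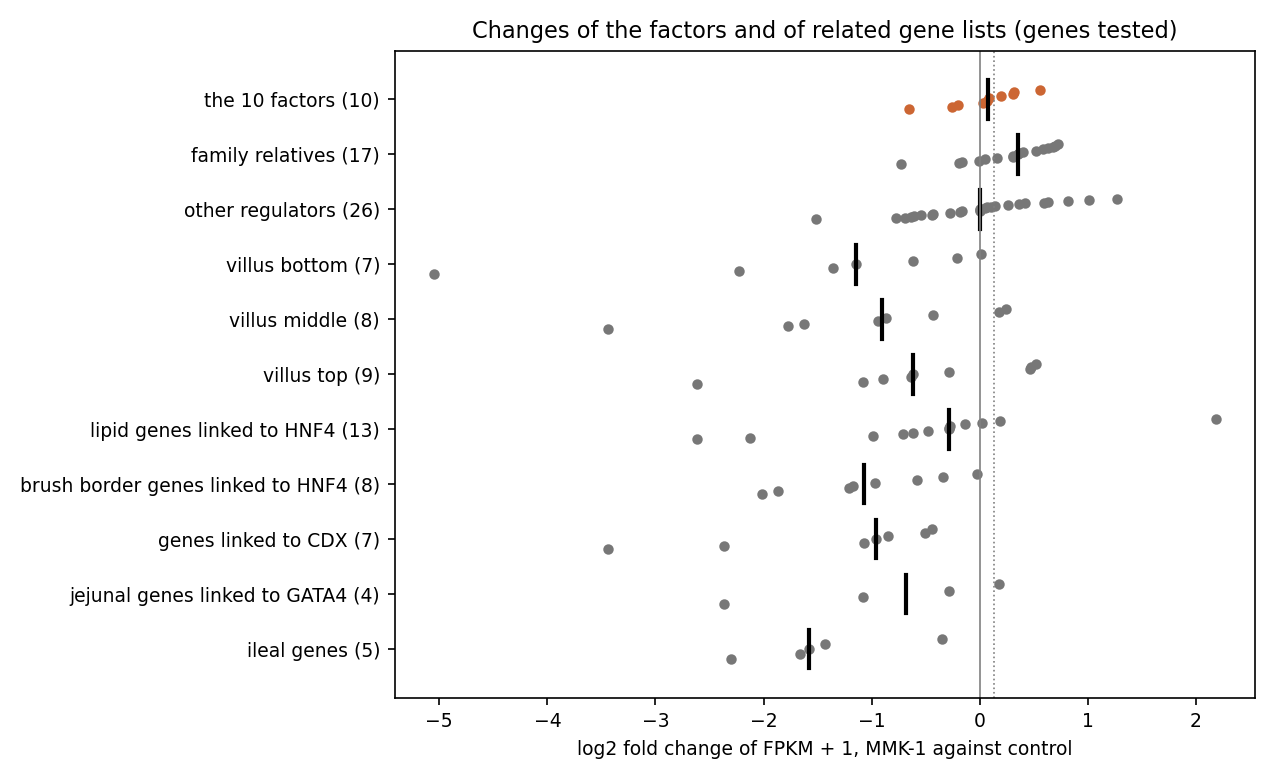
Log2 fold change of FPKM + 1 (horizontal axis, MMK-1 against control) of the 10 factors (orange) and of the genes tested in related lists (grey), with each list's median as a black bar and the median of all genes tested as a dotted line. The factors spread from -0.66 to 0.56, whereas brush border genes linked to HNF4 have a median of -1.08 and genes linked to CDX one of -0.96.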

How the data were processed

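RNA of 6 organoid libraries, 3 per group, was sequenced as paired-end reads. The authors deposited FPKM values per gene, in which fragments are divided by gene length and library total. The submitters' processing notes name the mm10 build (GRCm38), HISAT2, HTSeq, R 3.2.0 and DESeq2, without roles or a strand setting. Fragments and totals of all 21397 genes were computed from the steps of the FPKM values (all came out whole within 0.01 fragments). Their error covers counting only.

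Groups were compared with limma 3.58.1 (trend) in R 4.3.3 on log2(FPKM + 1) without a block, over the 10551 genes that averaged 1 FPKM or more, with Benjamini-Hochberg adjustment over all of them. All 10 members passed this filter. Fold changes on this scale understate changes of low genes. On simulated libraries, 100% of 195 genes changed 2-fold were recovered among 10280 tested, with 16 unchanged genes called. These libraries had the same set spread, few changed genes and no outlying library. They therefore do not show how the test performs on changes below 2-fold or with a library like MMK-1 replicate 3. Within-library ratios were tested by exact permutation (scipy 1.17.1) with adjustment over 4 ratios. Alternatives covered scaling, pseudocount, filter, block, left-out libraries, limma-voom on fragments and the GC trend (98.7% of tested genes had a GC value, from GENCODE vM21).

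Members, lists and motifs were chosen with earlier results of these data known. Named genes were all members and, per list, up to 3 with the largest called rises and falls, of which some are not reported here or are given by counts alone. Coordinates are RefSeq, GRCm38.p6.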

Additional observations from a re-analysis of the deposited data

How the results depend on the processing

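Under the 14 alternatives run for each gene, Elf3, Cdx1, Cdx2, Klf5 and Maf kept their direction and their call. Gata4 kept its direction and lost its call under both scalings. Hnf4a turned from 0.07 to -0.044 with upper-quartile scaling, -0.090 with median-of-ratios scaling and -0.0019 with the GC trend removed, with or without a replicate block. Gata6 turned to -0.028 and -0.073 under the same scalings, and Klf4 to -0.067 and -0.11, and to -0.040 with the GC trend removed, with or without a replicate block. Gata6 passed the test without a filter (adjusted p = 0.025). The number of members higher was 4 as reported and 3 to 5 under the other fits, and the number lower was 2 as reported, 4 with median-of-ratios scaling, which added Hnf4a and Klf4, and 3 with the GC trend removed, which added Hnf4g. By a fold of 2 with an unadjusted p, 0 were higher and 0 lower. With single libraries left out, 4 to 5 members were higher and 2 lower. Genes of the other lists called higher numbered 27 (22 to 30 over alternatives) and lower 55 (53 to 61).

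The joint fit of GC trend and replicate block was added after the data were seen. Same-numbered libraries did not deviate together (correlations of 0.025, -0.040 and 0.028). With 3 libraries per group, such correlations cannot show whether same-numbered samples shared a culture or a preparation. With the replicate number as a block, 4 members were higher and 2 lower, as without it, and no member changed its call, and the differences of the 4 log2 ratios were 0.33, 0.0089, 0.12 and 0.24, as without pairing. The Cdx1 to Cdx2 difference lay between -0.0029 and 0.026 with single libraries left out and changed sign without control replicate 1 (-0.0012) or MMK-1 replicate 1 (-0.0029). That of Hnf4a to Hnf4g lay between 0.046 and 0.49, Gata4 to Gata6 between 0.084 and 0.14, and Klf4 to Klf5 between 0.19 and 0.29. Depth did not limit the members, which had at least 459 fragments in each library.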
